A study of Mus musculus with 10 samples.

Results

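The experiment described here is the deletion of Lgr4 and Lgr5 in mouse intestinal organoids, which are cultured epithelial structures started from crypts of the small intestine. Its members are the 4 of 10 arrays in the series whose titles name day 1 organoids, either Lgr4/5 deleted (2 cultures) or wild type (2 cultures). The deleted organoids came from the small intestine of VillinCre_Lgr4fl/fl-Lgr5fl/fl mice and were taken 1 day after deletion, which their label gives without naming the inducing agent. The wild type organoids came from VillinCre_wt mice and, per their label, were taken after 1 day of tamoxifen. Both groups thus carried VillinCre, in which the Villin promoter drives the recombinase in gut epithelium. Because the cultures came from mice of different genotype, the deletion and any other genetic difference between those mice cannot be told apart. On each array organoid RNA was labelled with Cy5 and a commercial mouse reference RNA with Cy3. The other 6 arrays serve only for comparison. They held day 1 crypts of deleted against wild type mice, where the deletion used another Cre line, AhCre, and organoids after 1 day without R-spondin or grown with it. The labels do not say whether the cultures of a group came from separate animals, so the p-values measure the spread between these cultures, which may be partly technical.

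Lgr4, Lgr5 and Lgr6 are cell surface receptors for R-spondins, secreted proteins that amplify Wnt signalling. R-spondin bound to an Lgr receptor captures Rnf43 and Znrf3, E3 ubiquitin ligases that otherwise remove the Frizzled receptors of Wnt from the cell surface. Wnt signalling keeps the stem cells at the base of the crypt dividing, and Lgr5 is itself a Wnt target and a marker of those cells.

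Each array carried 45018 spots, of which 43379 were gene probes. In Cy5, 46.9% to 50.7% of gene probe spots were well above background, and the medians of the 153 negative control spots were 108 to 114 intensity units. In Cy3 only 3.66% to 4.26% were above background, and there the negative controls, with medians of 5883 to 6564, were brighter than the gene probes, with medians of 1830 to 1933. Cy5 intensity, normalised between the 4 arrays, is therefore the measure used, and the change in the Cy5 over Cy3 ratio is given beside it. Intensities below are the raw median Cy5 signals of a spot, in the order culture 1 and culture 2 of each group, and changes are log2 values of deleted minus wild type organoids after normalisation. Each of the 2 slides held 1 deleted and 1 wild type culture, culture 1 of each group on slide 1 and culture 2 on slide 2. The deviations of the 2 cultures on a slide from their group means correlated at 0.534 across 13044 genes, which are not independent replicates. A fit with the slide as a block is thus given beside the fit without it. On 4 arrays the block fit leaves very little to measure a gene's own spread. Its p-values therefore lean on the spread that limma pools over genes. Where a gene was not above background in 1 group, its fitted change depends on that background and is no exact size, and the bound is given as at least N-fold. Of 13832 genes tested in limma, 1 was lower (0.00723%) and 4 were higher (0.0289%) in deleted organoids at an adjusted p under 0.05. Before adjustment, 586 (4.24%) and 479 (3.46%) had a p under 0.05. Without deleted culture 2 limma called 0 lower and 0 higher, without deleted culture 1 it called 1 and 2, without wild type culture 1 it called 35 and 61, and without wild type culture 2 it called 4 and 7. With the slide as a block, 198 were lower (1.43%) and 146 higher (1.06%). By ratio 0 genes were lower and 0 higher in limma (0.0% each of 13801), where 271 (1.96%) and 286 (2.07%) had an unadjusted p under 0.05. Among the 13044 genes with a value on all 4 arrays, both deleted cultures lay below both wild type cultures for 2433 (18.7%) and above them for 2370 (18.2%).

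The deleted genes were read by several 60-base probes, and those for Lgr4 behaved differently. The first 30 bases of each probe are shown, as the array files give them, so that the part of the gene behind each value can be traced. Positions are in mouse build mm9. Lgr4 lies on the plus strand of chromosome 2 and Lgr5 on the minus strand of chromosome 10. The upstream Lgr4 probe matches a stretch that is interrupted in the genome, at chr2:109829910-109831296. The other Lgr4 probes lie at chr2:109846062-109846121 (designed on a cDNA clone), chr2:109852832-109852891 (downstream) and chr2:109854007-109854066 (farthest downstream). The Lgr5 probe lies at chr10:114888847-114888906. The labels do not say which exons are removed, and a probe outside the removed part is no check of the deletion.
Lgr4 upstream: tgggttgaaagaactcaaagtcctaaccct
Lgr4 cDNA clone: tgttaaggaccagtttaaatgtgacactat
Lgr4 downstream: agtcagaagtctgtgaagaatgggagccta
Lgr4 farthest downstream: gcatatgatgaagtttatcttgtgtaaatt
Lgr5: aaacaccgcttgtatcatttgttcagctaa

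The farthest downstream Lgr4 probe, the brightest of the gene, read 198 and 355.5 in deleted organoids, against 2035 and 2846 in wild type organoids. The downstream probe read 120 and 130 in deleted organoids, neither above background, against 897 and 943.5 in wild type organoids, which puts it at least 10.4-fold lower. At both probes the groups lay far apart. The upstream probe read 406 and 219 in deleted organoids and 299 and 225.5 in wild type organoids, and there the groups overlapped. The probe on the cDNA clone read 94 to 111 in the 4 cultures and was not above background in any. The changes were -3.57 for the farthest downstream probe (SE 0.37), -3.38 for the downstream probe and 0.14 for the upstream probe. Lgr4 did not pass in limma by its brightest probe (adjusted p 0.110), where the ratio gave -0.59, and passed with the slide as a block (adjusted p 0.000368). Its change was -3.68 on slide 1 and -3.47 on slide 2.

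Lgr5 read 108 and 118.5 in deleted organoids, at the level of the negative controls and not above background. It read 1004 and 1591 in wild type organoids. That is at least 12.3-fold lower in deleted organoids. The spot of wild type culture 2 was marked as an outlier by the scanner software and left out. The fit thus used 3 arrays, with wild type culture 1 alone in its group (fitted change -3.73, SE 0.28). With the slide as a block the change was -3.80, which is the difference on slide 1 alone. No p-value is given for Lgr5, since the spread of its wild type cultures could not be measured. Lgr6 was dim, at 155 and 133 in deleted organoids and 170 and 155 in wild type organoids, and its change of -0.34 did not pass (limma adjusted p 0.821).

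**Figure D1:**
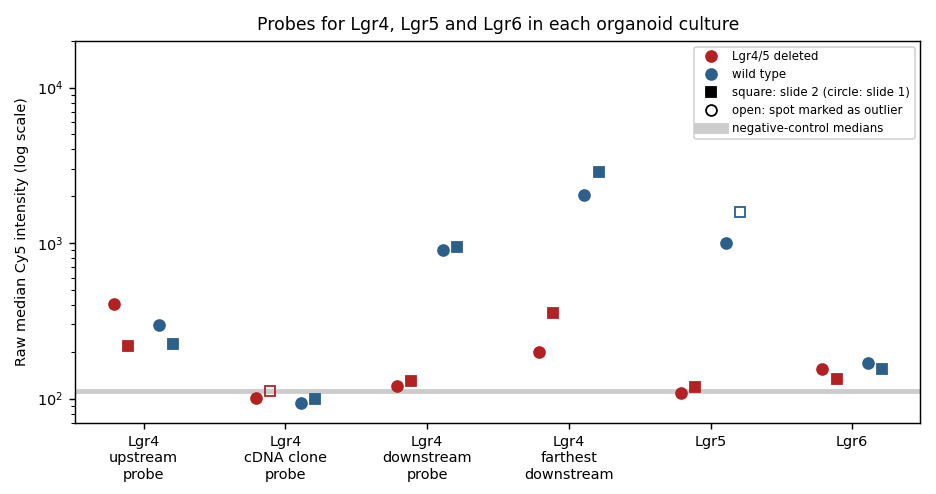
Raw median Cy5 intensity, on a log axis, of each probe for Lgr4, Lgr5 and Lgr6 in the 2 deleted (red, left of each pair of columns) and 2 wild type (blue) organoid cultures, with the range of the negative control medians in grey. Deleted cultures lie below wild type cultures at the downstream Lgr4 probes and at Lgr5, and the 2 groups overlap at the upstream Lgr4 probe (406 and 219 against 299 and 225.5).

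The E3 ligases on which the Lgr receptors act were lower in deleted organoids. Rnf43 read 1688.5 and 1593 in deleted organoids, against 5647.5 and 6288.5 in wild type organoids. Znrf3 read 308 and 306.5 in deleted organoids, against 552.5 and 595.5 in wild type organoids. For both genes the cultures of a group lay close together and the groups did not overlap. The changes were -2.10 for Rnf43 (SE 0.25, -1.01 by ratio) and -1.12 for Znrf3 (SE 0.22, -0.05 by ratio, where its groups overlapped). Neither passed in limma (adjusted p 0.110 and 0.310), and both passed with the slide as a block (0.00509 and 0.0311). With the Lgr receptors they make up the 5 tested genes of a list of 9. By ratio 2 of these were lower without overlap, where 13.6% of all genes were. By Cy5 4 of the 4 with complete values were lower without overlap, where 18.7% of all genes were. These 4 include the deleted gene Lgr4 and the dim Lgr6. The R-spondin genes Rspo1 to Rspo4 were not tested, because they were not above background in every culture of either group or had too few values.

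Of 5 tested genes listed as feedback regulators of Wnt signalling, 3 were lower without overlap, where 18.7% of all genes were. Axin2, a scaffold of the complex that destroys beta-catenin and a widely used readout of the pathway, read 110 and 122 in deleted organoids, not above background. It read 460 and 703.5 in wild type organoids, so that it was at least 7.0-fold lower in deleted organoids. Nkd1, which binds Dishevelled and dampens Wnt signalling, read 137 and 129 in deleted organoids, not above background, against 206 and 322 in wild type organoids, at least 2.41-fold lower. Bambi, a decoy receptor for BMP and TGF-beta, read 185 and 247 in deleted organoids, against 330 and 460 in wild type organoids. Some Bambi spots were marked as outliers in both deleted cultures. The fitted changes were -2.92, -1.27 and -1.06, and -4.69, -2.03 and -0.45 by ratio. In limma the adjusted p was 0.110, 0.430 and 0.481, and with the slide as a block it was 0.000953, 0.0398 and 0.0303. Of 15 feedback genes listed, the 10 not tested, among them Notum, Wif1, Nkd2 and the Dkk genes, were not above background in every culture of either group or had too few values.

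Wnt target genes that encode transcription factors and effectors were lower as well. Of 17 tested genes, 15 were lower without overlap and 1 was higher, against 18.7% and 18.2% of all genes. With the slide as a block 8 were lower, against 1.43% of all genes, and 0 higher, and 1 was lower without the block. The median change was -1.07 by Cy5 and -0.85 by ratio, against 0.02 and 0.03 over all genes tested. This list and the others were chosen with earlier results of these data known, so their counts and medians are descriptions and no independent support. Rgcc, a regulator of the cell cycle first described as a complement response gene, read 231 and 171 in deleted organoids, against 2898 and 4126 in wild type organoids. It was the 1 gene that fell at the threshold (change -4.56, SE 0.34, limma adjusted p 0.0368), with -1.76 by ratio. Sox9, a transcription factor of crypt base and Paneth cells, read 425 and 1051.5 in deleted organoids, against 1663 and 2813 in wild type organoids. Slc12a2, the sodium, potassium and chloride cotransporter of crypt cells, read 658 and 2716 in deleted organoids, against 5729 and 6050 in wild type organoids. Pla2g5, a secreted phospholipase, read 124.5 and 147 in deleted organoids, against 323 and 977 in wild type organoids. For Sox9 and Slc12a2 deleted culture 2 lay well above deleted culture 1, though still below both wild type cultures. The changes of Sox9, Slc12a2 and Pla2g5 were -1.94, -2.39 and -2.50, and none passed in limma (adjusted p 0.409, 0.386 and 0.380).

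Wnt ligands, Frizzled receptors, Lrp co-receptors and TCF partners had values on both sides of zero. Of 24 tested, 4 were lower and 4 higher without overlap, against 18.7% and 18.2% of all genes, with a median of -0.04. Fzd9, a Wnt receptor, read 122 and 134.5 in deleted organoids, not above background, against 209 and 475 in wild type organoids. Wnt3, the ligand that Paneth cells secrete, read 174 and 207.5 in deleted organoids, against 275 and 382 in wild type organoids. Both genes were dim, and for Fzd9 wild type culture 2 was well above the other cultures. Fzd9 was at least 3.19-fold lower, Wnt3 changed by -1.0 without passing in limma (adjusted p 0.481), and both were lower with the slide as a block (adjusted p 0.0367 and 0.0439). Fzd4 read 238 and 174 in deleted organoids, against 140 and 118, not above background, in wild type organoids. The 2 tested probes of Lrp6, the Wnt co-receptor, did not give the same direction. One read 589.5 and 576 in deleted organoids, against 193 and 159 in wild type organoids (change 1.86), and the other read 217 and 209.5 against 269.5 and 237 (change -0.41).

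Markers of the crypt base stem cells were lower, and several were among the genes with the largest negative changes under the naming rule given at the end. Of 26 tested stem cell markers, 18 were lower and 3 higher without overlap, against 18.7% and 18.2% of all genes. With the slide as a block 15 were lower and 2 higher, against 1.43% and 1.06% of all genes. The median change was -1.08 by Cy5 and -0.22 by ratio, and 9 of the 23 with complete ratios were lower without overlap and 3 higher, against 13.6% and 19.9% of all genes. Olfm4, a secreted glycoprotein of stem cells, read 258 and 902 in deleted organoids, against 6106.5 and 10927 in wild type organoids. Gkn3, a gastrokine that marks these cells in mice, read 258.5 and 394 in deleted organoids, against 987 and 2757 in wild type organoids. Scn2b, a sodium channel subunit, read 133 and 253.5 in deleted organoids, against 630 and 979 in wild type organoids. In each of these genes both wild type cultures lay above both deleted cultures by more than the deleted cultures differed from each other on the raw scale. The changes were -4.42 for Olfm4 (SE 0.61), -2.67 for Gkn3 (SE 0.55) and -2.50 for Scn2b (SE 0.43), with -1.66, -0.86 and 0.18 by ratio. None passed in limma (adjusted p 0.139, 0.310 and 0.224), and all passed with the slide as a block (0.000368, 0.00521 and 0.00161). These are bulk measurements, in which fewer cells of a type and less RNA per cell cannot be told apart.

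Nrn1, a membrane-anchored protein named neuritin for its role in neurons, is on the same stem cell list and went the other way. It read 7590 and 5017 in deleted organoids, against 241.5 and 176 in wild type organoids. This was the largest positive change of any gene named, 4.98 (SE 0.35, limma adjusted p 0.0368), and 2.34 by ratio.

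Eph receptors and ephrins sort cells along the crypt, and Ephb2 and Ephb3 are Wnt targets there. Ephb3 read 465 and 854 in deleted organoids, against 2085 and 4382 in wild type organoids. Ephb2 read 745.5 and 1253 in deleted organoids and 1111 and 1533.5 in wild type organoids. The raw Ephb2 signals of the groups interleave, and after normalisation both deleted values were the lower ones. The change was -2.53 for Ephb3 (SE 0.46, -1.56 by ratio) and -0.61 for Ephb2 (SE 0.31, -0.37 by ratio). Epha4 changed by -1.05 and Efna4 by -0.92. None of the 4 passed in limma (adjusted p 0.250 for Ephb3), and Ephb3 and Epha4 passed with the slide as a block (adjusted p 0.00210 and 0.0316). Of 11 tested members, 6 were lower and 3 higher without overlap, against 18.7% and 18.2% of all genes. By ratio 3 were lower and 2 higher, against 13.6% and 19.9% of all genes. The list median was -0.27 by Cy5 and 0.06 by ratio.

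The remaining genes with the largest negative changes under the naming rule belong to several families. Cdca7, a chromatin factor that Myc and E2F induce, read 625 and 1124 in deleted organoids, against 3442 and 4638 in wild type organoids. Cdk6, a kinase of the G1 phase, read 1134 and 1236.5 in deleted organoids, against 3897 and 5213 in wild type organoids. Ceacam10, of the carcinoembryonic antigen family, read 135.5 and 210 in deleted organoids, against 668.5 and 716 in wild type organoids. In these genes every wild type culture was about 3-fold or more above every deleted one. Rbm45, an RNA-binding protein, read 186 and 152 in deleted organoids, against 753 and 562 in wild type organoids. Tent5c, a non-canonical poly(A) polymerase, read 249.5 and 579.5 in deleted organoids, against 1128.5 and 2128 in wild type organoids. Cdc42ep1, an effector of the small GTPase Cdc42, read 464.5 and 997 in deleted organoids, against 2022 and 3167 in wild type organoids. None of these groups overlapped, as the choice of these genes required. The changes lay between -2.50 for Ceacam10 and -2.15 for Cdc42ep1, and the ratios between -3.34 for Ceacam10 and -0.86 for Cdc42ep1. In limma the adjusted p was 0.110 for Cdca7, Cdk6, Ceacam10 and Rbm45, 0.326 for Tent5c and 0.283 for Cdc42ep1. A second tested probe gave a smaller change for Cdk6 (-0.58) and for Cdc42ep1 (-0.57).

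The 4 genes that rose at the threshold were Nrn1, H2-Bl, Dusp16 and Gas6. H2-Bl, a non-classical MHC class I gene, read 9909 and 13160.5 in deleted organoids, against 673 and 617 in wild type organoids. Gas6, the ligand of the receptor kinases Tyro3, Axl and Mertk, read 9495 and 8544.5 in deleted organoids, against 926 and 695 in wild type organoids. In both genes the 2 cultures of a group were close together and the groups lay far apart. The changes were 4.04 for H2-Bl (SE 0.21, limma adjusted p 0.0221) and 3.35 for Gas6 (SE 0.25, limma adjusted p 0.0368), with 1.71 and 2.13 by ratio. The other 2 probes of H2-Bl gave 2.51 and 4.12. H2-Bl belongs to a family of close relatives, and its probes may also read other members.

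Dusp16, a phosphatase that inactivates JNK and p38 kinases, rested on 1 of its 3 probes. The probes are on the minus strand of chromosome 6, and their first 30 bases are shown because only 1 carries the change. The probe that rose lies at chr6:134665656-134665696, the farthest downstream, and its 60 bases cover 41 genome positions in the file's annotation. The others lie at chr6:134668003-134668062 and chr6:134687549-134687608.
Dusp16 with the change: gtacaaaatggtgattttgagcaaaactag
Dusp16 middle: ggcatgaagagagcccctttgaaaagcagt
Dusp16 upstream: ggctcttagccagaataatgacttaagttt

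The first of these Dusp16 probes read 2750 and 2680 in deleted organoids, against 174.5 and 211 in wild type organoids (change 3.95, SE 0.26, limma adjusted p 0.0368, 1.32 by ratio). The upstream probe read 149 and 212 in deleted organoids and 155 and 174 in wild type organoids (change 0.07). The middle probe read 129 and 129 in deleted organoids and 119 and 131 in wild type organoids and was not above background in any culture. The groups were thus far apart at 1 probe and overlapped at the others.

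The other 11 genes with the largest positive changes under the naming rule did not pass without the slide block. Kbtbd11, a Kelch and BTB domain protein, read 5166.5 and 2422 in deleted organoids, against 488 and 262.5 in wild type organoids. Npl, the lyase that breaks down sialic acid, read 1228 and 785.5 in deleted organoids, against 181 and 154 in wild type organoids. Aqp8, a water channel of surface enterocytes, read 6891.5 and 4139 in deleted organoids, against 1664 and 471 in wild type organoids. In each of these 3 genes both deleted cultures lay above both wild type cultures, and the cultures of a group differed widely for Kbtbd11 and Aqp8. Aspg, an asparaginase, read 6844 and 10930 in deleted organoids, against 1670 and 2078 in wild type organoids. Lrp12, of the LDL receptor family, read 1745 and 617.5 in deleted organoids, against 216 and 177 in wild type organoids. Gt(ROSA)26Sor, the non-coding transcript of the Rosa26 locus, read 5603 and 2394 in deleted organoids, against 822 and 584 in wild type organoids. Deleted culture 1 was the brighter deleted culture in all but Aspg. The changes were 3.28, 2.76, 2.47, 2.03, 2.57 and 2.28 in that order, and limma gave adjusted p-values of 0.185, 0.110, 0.430, 0.139, 0.361 and 0.340. A second probe of Kbtbd11 gave 1.48 and a second probe of Aspg 0.91.

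The last 5 were at or near background in wild type organoids. Zfp503, a zinc finger repressor, read 719 and 386 in deleted organoids, against 100 and 98.5 in wild type organoids, at least 5.17-fold higher. Crym, a thyroid hormone-binding protein, read 904.5 and 343 in deleted organoids, against 122 and 110 in wild type organoids, at least 5.44-fold higher. Tmem252 read 627 and 352.5 against 118 and 116, and Pm20d1, an enzyme that makes N-acyl amino acids, read 667 and 429.5 against 148 and 128.5, in deleted and in wild type organoids. They were at least 4.62-fold and at least 4.61-fold higher. Mtarc1, a mitochondrial reductase, read 1232 and 537 in deleted organoids, against 184 and 123 in wild type organoids, where 1 culture was above background (change 2.62, limma adjusted p 0.310).

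**Figure D2:**
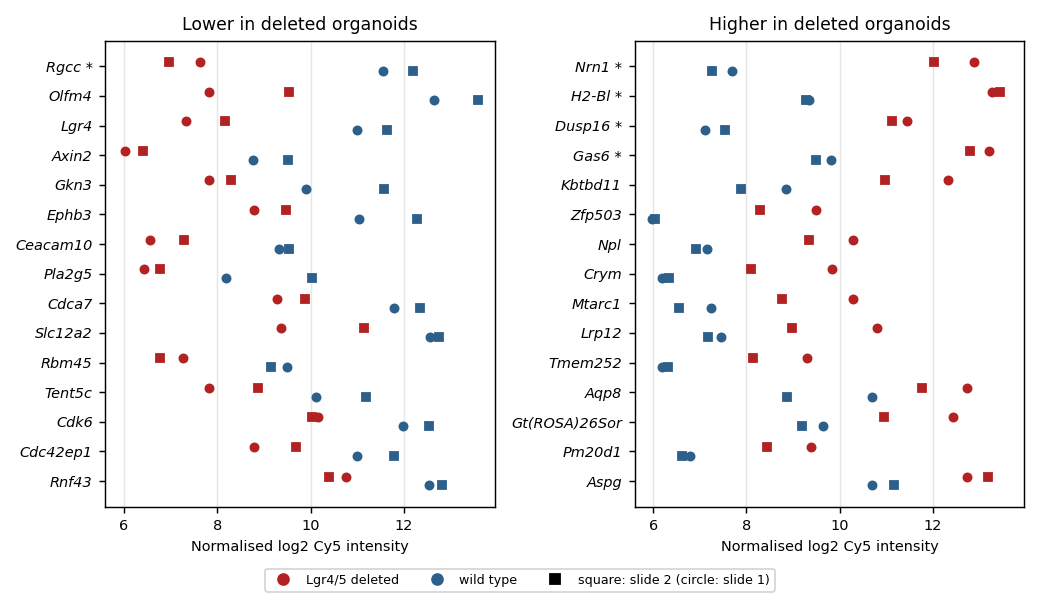
Normalised log2 Cy5 intensity of the 15 genes with the largest negative and the 15 with the largest positive changes under the naming rule, in the 2 deleted (red, upper points) and 2 wild type (blue, lower points) cultures, circles for slide 1 and squares for slide 2, with an asterisk where limma's adjusted p was under 0.05. No deleted value overlaps a wild type value, which the rule required, and deleted culture 2 is the nearer to wild type for Slc12a2 and Olfm4.

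Genes of the dividing cell were lower, most clearly those of DNA replication. Of 34 replication and S phase genes with complete values, 29 were lower and 1 higher without overlap, against 18.7% and 18.2% of all genes. With the slide as a block 7 of 35 tested were lower, against 1.43% of all genes. The median change was -0.96 by Cy5 and -0.70 by ratio. Mcm4, a subunit of the replicative helicase, read 2149 and 8379 in deleted organoids, against 12873 and 13537 in wild type organoids. Mcm2, from the same helicase, read 327 and 767 in deleted organoids, against 1580 and 1375 in wild type organoids. Mcm3, another subunit, read 1633.5 and 4209 in deleted organoids, against 8615.5 and 6969.5 in wild type organoids. Uhrf1, which carries DNA methylation through replication, read 775 and 1766 in deleted organoids, against 3766 and 2835 in wild type organoids. In all 4 genes deleted culture 1 was lowest by far and deleted culture 2 lay between it and the wild type cultures. The changes were -1.87, -1.81, -1.80 and -1.72, and none passed in limma (adjusted p 0.481, 0.313, 0.326 and 0.316).

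Mitosis and spindle genes and ribosome biogenesis genes had smaller changes in the same direction. Of 34 mitotic genes with complete values, 19 were lower and 0 higher without overlap, against 18.7% and 18.2% of all genes. Their median was -0.55 by Cy5 and -0.28 by ratio. Limma called 0 of 35 tested, with the slide as a block and without it. Without the block 7 were lower at an unadjusted p under 0.05, where 4.24% of all genes were. Nusap1, a spindle protein, changed by -1.02, Top2a, the topoisomerase of dividing cells, by -0.98 and Aurkb, a mitotic kinase, by -0.86, with limma adjusted p-values of 0.481, 0.562 and 0.611. Of 31 ribosome biogenesis genes with complete values, 19 were lower and 0 higher without overlap, against the same shares of all genes. The median was -0.54 by Cy5 and -0.31 by ratio. Gar1 of the box H/ACA particles read 723 and 1778.5 in deleted organoids and 1706 and 2481.5 in wild type organoids. It was the 1 of 34 tested members lower in limma with the slide as a block (change -1.06, adjusted p 0.0339), where 1.43% of all genes were.

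The extent of these changes differed between the slides. The replication median was -1.34 on slide 1 and -0.48 on slide 2, the mitotic median -0.95 and -0.14, and the ribosome biogenesis median -0.84 and -0.26. Deleted culture 2 exceeded deleted culture 1 by a median of 0.83 over the replication genes. The Wnt target list, in contrast, gave -0.83 on slide 1 and -1.07 on slide 2, and the stem cell list -0.93 and -1.17. Within the named genes the slide values were -3.91 and -5.21 for Rgcc, -4.81 and -4.03 for Olfm4, -2.74 and -3.10, as fitted, for Axin2 and 5.20 and 4.76 for Nrn1.

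**Figure D3:**
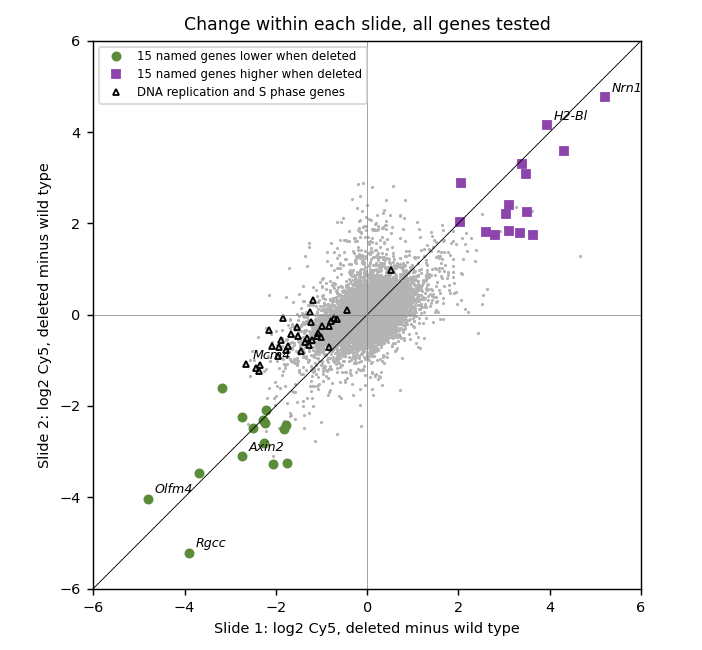
Log2 change in Cy5, deleted minus wild type, on slide 1 (x axis) and on slide 2 (y axis) for every gene tested (grey), with the named genes lower (green circles) and higher (purple squares) in deleted organoids and the replication genes (open triangles), and the line of equal change. Most replication genes lie to the left of zero and above the line, with medians of -1.34 on slide 1 and -0.48 on slide 2, and the named genes lie on both sides of the line.

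Markers of the differentiated cell types did not shift as one. Paneth cells secrete antimicrobial proteins at the crypt base. Of 16 Paneth cell markers with complete values, 6 were lower and 0 higher without overlap, against 18.7% and 18.2% of all genes. With the slide as a block 4 of 19 tested were lower, against 1.43% of all genes. The median was -0.64 by Cy5 and -0.34 by ratio. Mptx1, a pentraxin, read 2092 and 6401 in deleted organoids, against 6639.5 and 23177 in wild type organoids. Cd24a, a surface sialoglycoprotein that is high on these cells, read 5276 and 6866 in deleted organoids, against 10711.5 and 10937 in wild type organoids. For Mptx1 the cultures of a group lay so far apart that deleted culture 2 came close to wild type culture 1, while for Cd24a the gap between the groups was wider than the spread within either. The changes were -1.96 for Mptx1 (SE 0.69) and -1.1 for Cd24a (SE 0.21), with limma adjusted p-values of 0.583 and 0.294, and 0.00509 and 0.0244 with the slide as a block. Pnliprp1, a lipase-related protein, changed by -1.23 and Pla2g2a, a bactericidal phospholipase, read 114 and 133.5 in deleted organoids, not above background, against 161 and 554 in wild type organoids. Its difference rested mainly on wild type culture 2 and did not pass in limma with the slide as a block (adjusted p 0.0857). The wild type cultures differed from each other by a median of 1.18 over these markers, more than the deletion median.

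Enterocyte markers, the proteins of the absorptive surface, lay mostly on the positive side. Of 31 with complete values, 14 were higher and 2 lower without overlap, against 18.2% and 18.7% of all genes, and the median was 0.39 by Cy5 and 0.13 by ratio. Lct, the lactase of the brush border, read 10712 and 9747 in deleted organoids, against 4234 and 3175.5 in wild type organoids. Npc1l1, the cholesterol uptake transporter, read 7913 and 7662 in deleted organoids, against 4268 and 3021 in wild type organoids. Both were separated by more than the spread in either group. Their changes of 1.24 (SE 0.25) and 0.89 (SE 0.25) did not pass in limma (adjusted p 0.310 and 0.482), and both were higher with the slide as a block (adjusted p 0.0169 and 0.0494). Cps1, the first enzyme of the urea cycle, went the other way by Cy5, at 6905 and 6622 in deleted organoids against 19998 and 23452 in wild type organoids (change -1.93), but gave 0.08 by ratio. Mttp, which loads lipid onto apolipoprotein B, gave 0.80 by Cy5 and -1.26 by ratio.

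Goblet cell markers had a median of 0.22, with 3 of 16 higher and 1 lower without overlap, against 18.2% and 18.7% of all genes. Limma called 0 with the slide as a block. Without it 3 were higher at an unadjusted p under 0.05, where 3.46% of all genes were. Muc2, the main secreted mucin, read 2335 and 3661.5 in deleted organoids and 1173 and 1946.5 in wild type organoids (change 0.78), and Capn9, a calpain of these cells, changed by 0.82. Enteroendocrine markers split, with 7 of 24 lower and 7 higher without overlap, against 18.7% and 18.2% of all genes, and a median of -0.04. Sst, the hormone somatostatin, read 1172 and 1723 in deleted organoids, against 193 and 421 in wild type organoids. Gcg, the precursor of glucagon and GLP-1, read 2841 and 4164 in deleted organoids, against 989 and 1539 in wild type organoids. Some Sst spots in both deleted cultures and Gcg spots in wild type culture 2 were marked as outliers. Neurog3, the transcription factor of endocrine progenitors, read 232 and 299.5 in deleted organoids, against 392 and 541 in wild type organoids. Sst and Gcg were thus higher and Neurog3 lower in deleted organoids by Cy5, while the list as a whole split. The summed normalised signal of its tested members was 125452 and 110708 in deleted organoids, against 146947 and 153984 in wild type organoids. By ratio the Sst groups overlapped, and both deleted Neurog3 values lay above both wild type values. The changes were 2.38 for Sst, 1.40 for Gcg and -1.02 for Neurog3, with 0.87, 0.24 and 0.18 by ratio. None passed in limma (adjusted p 0.298, 0.320 and 0.443), and all passed with the slide as a block (0.00612, 0.0130 and 0.0386). Tuft cell markers had a median of -0.18, with 6 of 14 lower and 2 higher without overlap, against 18.7% and 18.2% of all genes. Limma called 0 of them with the block or without it (1 lower at an unadjusted p under 0.05, where 4.24% of all genes were). Alox5, Ptgs1, Trpm5 and Avil changed by -0.68 to -0.46.

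The cultures carried the markers of gut epithelium. All 15 tested of 16 epithelial identity genes were above background in every culture, and Vil1, the gene whose promoter drives the Cre, read 113982 and 99173.5 in deleted organoids and 81027 and 76426 in wild type organoids (change 0.35, limma adjusted p 0.851). Of 13 with complete values, 7 were higher and 0 lower without overlap by Cy5, against 18.2% and 18.7% of all genes. By ratio 0 were higher or lower without overlap, against 19.9% and 13.6% of all genes. Some markers of other cell types were read as well. For stromal and muscle cells 10 of 15 were tested, and all 10 were above background in every culture. Their summed normalised signals were 6970 to 9107 in deleted organoids and 8108 to 8295 in wild type organoids. The brightest, Acta2, read 3885 and 3614 in deleted organoids, against 2387 and 3392 in wild type organoids. For immune cells 7 of 21 were tested, and their sum, 46154 and 81754 in deleted organoids and 44596 and 120671 in wild type organoids, came mostly from Lyz2, a lysozyme that is also close in sequence to the Paneth cell gene Lyz1. For endothelial and erythroid cells 3 of 12 were tested, summing to 348 and 350 in deleted organoids and 407 and 461 in wild type organoids, and the brightest, Hbb-bt, read 166 to 191.5 in the 4 cultures. Esam, an endothelial adhesion protein, was not above background in deleted organoids and at least 1.63-fold lower there. Limma called 0 genes of these 3 lists with the block and 0 without it, where Esam alone had an unadjusted p under 0.05.

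**Figure D4:**
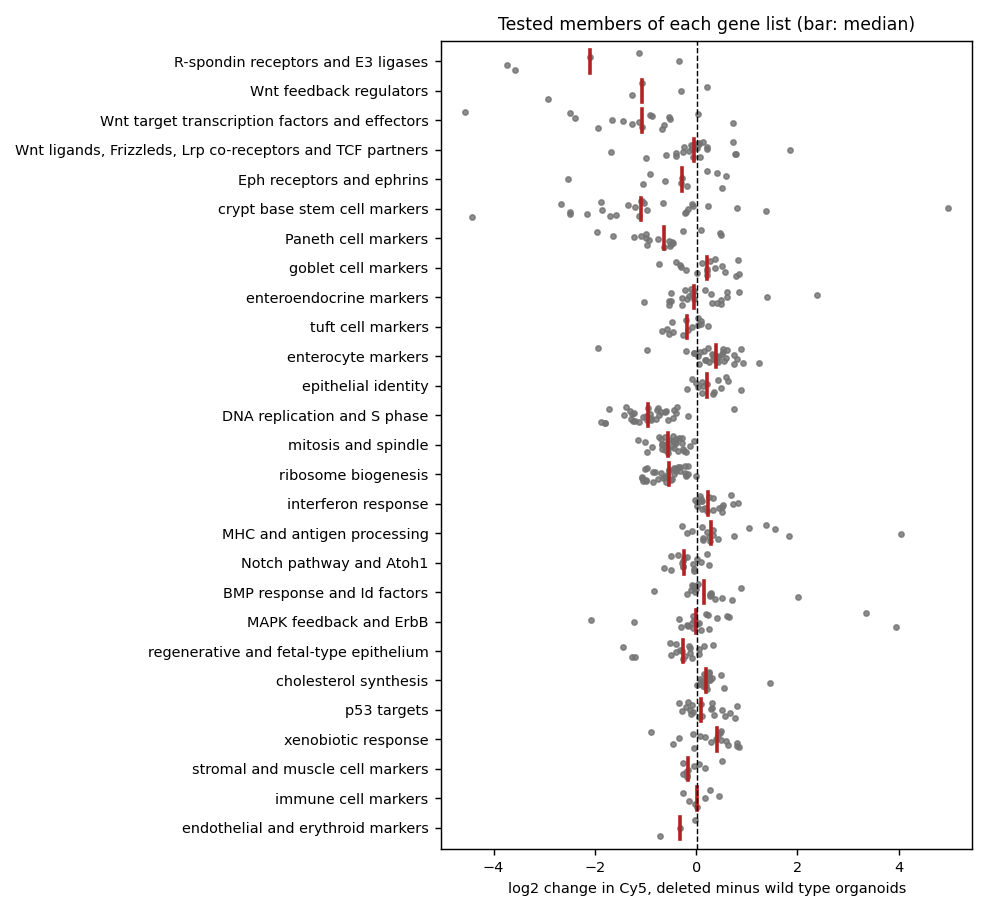
Log2 change in Cy5, deleted minus wild type organoids, of each tested member of the 27 gene lists (grey points), with the median of the list (red bar) and the median of all genes tested (dashed line at 0.02). The R-spondin receptor, Wnt target, stem cell and replication lists have medians between -2.10 and -0.96, and the enterocyte list has a median of 0.39.

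MHC and antigen processing genes and interferon response genes lay above the median of all genes. Of 16 MHC genes with complete values, 10 were higher and 0 lower without overlap, against 18.2% and 18.7% of all genes. With the slide as a block 4 of 18 tested were higher, against 1.06% of all genes. Psmb8, a subunit of the immunoproteasome, read 1592.5 and 2397 in deleted organoids, against 601 and 639 in wild type organoids. H2-T3, the thymus leukaemia antigen of intestinal epithelium, read 1473.5 and 1678 in deleted organoids, against 376 and 476.5 in wild type organoids. The changes were 1.55 and 1.84, with 0.90 and 0.41 by ratio, and limma adjusted p-values of 0.152 and 0.139 (0.00680 and 0.00632 with the slide as a block). H2-Ab1, a class II chain, read 576.5 and 149 in deleted organoids, against 141 and 122, not above background, in wild type organoids, so that its difference rested mainly on deleted culture 1. H2-Bl, H2-T3, Psmb8 and H2-Ab1 all lie on chromosome 17. Of 20 interferon response genes tested, 10 were higher and 0 lower without overlap, against 18.2% and 18.7% of all genes, with a list median of 0.24. The changes were 0.83 for Oas1a, 0.72 for Oasl2 and 0.69 for Igtp, and Ifit1, not above background in wild type organoids, was at least 1.31-fold higher. Limma called 0 of them with the slide as a block. Without it 2 were higher at an unadjusted p under 0.05, where 3.46% of all genes were.

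Signalling pathways that balance Wnt in the crypt showed single members rather than lists that differed. In the BMP and Id list 6 of 18 were higher and 3 lower without overlap, against 18.2% and 18.7% of all genes, with a median of 0.15. Id4, an inhibitor of basic helix-loop-helix factors, read 638 and 666 in deleted organoids, against 193 and 166 in wild type organoids (change 2.02, 2.12 by ratio, limma adjusted p 0.110, and 0.00305 with the block), and its second probe, not above background in wild type organoids, was at least 2.06-fold higher. Id1 changed by 0.71 and Bmp7, a BMP ligand, by -0.82. In the MAPK and ErbB list 6 of 21 were higher and 3 lower without overlap, against the same shares of all genes. Phlda1, a pleckstrin-like protein that receptor kinases induce, read 812 and 1385 in deleted organoids, against 2761 and 5205 in wild type organoids (change -2.08, limma adjusted p 0.298, and 0.00424 with the block), and Erbb3, a receptor of the EGF receptor family, changed by 0.65. In the Notch list 5 of 15 were lower and 1 higher without overlap by Cy5, but 0 were lower and 5 higher by ratio. Over all genes 18.7% were lower and 18.2% higher by Cy5, and 13.6% and 19.9% by ratio. Dll1, a Notch ligand, gave -0.64 by Cy5 and 0.63 by ratio, and Hes1, a Notch target, gave -0.27 and 0.36.

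The remaining lists had medians between -0.27 and 0.41. Beside the counts that follow, 18.7% of all genes were lower and 18.2% higher without overlap. For the regenerative and fetal-type epithelium list 3 of 17 were lower and 0 higher without overlap, with a median of -0.27, and Ly6a, a marker of that state, read 239 and 226 in deleted organoids and 264 and 260 in wild type organoids. Cholesterol synthesis genes had a median of 0.20 and 4 of 19 higher. Lss, lanosterol synthase, changed by 1.46 by its brightest probe, where wild type culture 2 read 406 and the other cultures 2231 to 2964, and its other probes gave 0.27 and 0.37. Targets of p53 had a median of 0.11, with 8 of 20 higher and 4 lower, and Cdkn1a, a cell cycle inhibitor, read 1805 and 1695 in deleted organoids and 1042 and 876 in wild type organoids (change 0.77, limma adjusted p 0.499). Xenobiotic response genes had a median of 0.41 by Cy5 and 0.03 by ratio, with 7 of 17 higher and 2 lower. Ces1g, a carboxylesterase, changed by -0.89 and Gsta4, a glutathione transferase, by 0.81.

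The 30 genes with the largest changes under the naming rule were set beside the other comparisons of the series. Genes left out by that rule, among them Lgr5 (-3.73), Scn2b (-2.50) and Sst (2.38), changed by more than some of the 30. In crypts, deletion was read as the log2 ratio of deleted over wild type tissue in 2 replicates. In organoids, R-spondin withdrawal was 1 culture without it against 1 with it, so it has no test, and the fold used is 1 on the log2 scale. Of the 15 genes lower in deleted organoids, 13 were lower without R-spondin and 12 of them by 1 or more, where 9.09% of all genes were lower by that much. The log2 change without R-spondin was -6.82 for Olfm4 and -6.36 for Rgcc, whereas it was 0.06 for Lgr4 and 0.08 for Rbm45. Lgr5 read 173 without R-spondin, not above background, against 6455 with it, and Axin2 read 157, not above background, against 792. Of the 14 of these genes measured in crypts, 10 were lower in both replicates, where 32.8% of all genes were, and Pla2g5 was higher in both (1.1 and 1.38). Rnf43 read -0.43 and 0.46 in crypts and Rgcc -0.80 and -0.07. The values of Olfm4 (-2.00 and -1.62), Gkn3 (-2.28 and -1.87) and Slc12a2 (-1.46 and -1.73) were below -1 in both crypt replicates.

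The 15 genes higher in deleted organoids had less even values elsewhere. Of the 13 measured in the withdrawal, 9 were higher and 3 by 1 or more, where 6.89% of all genes were higher by that much. The 3 were H2-Bl (2.08), Kbtbd11 (1.24) and Aqp8 (1.23). Of the 14 measured in crypts, 5 were higher in both replicates and 5 lower in both, against 29.9% and 32.8% of all genes. Nrn1, Zfp503, Npl, Gt(ROSA)26Sor and Aspg were the 5 lower in both, and Nrn1 read 0.16 without R-spondin. The difference between the organoid and the crypt change was itself tested in limma, and passed for 13 of 11645 genes (0.112%) by Cy5 and for 3 of 11620 (0.0258%) by ratio. Of the 30 genes, Nrn1, H2-Bl, Npl, Gas6, Zfp503 and Rgcc were among the 13 by Cy5, and 0 of the 30 were among the 3 by ratio. The deleted crypts and the deleted organoids come from different Cre lines and different tissue preparations, and the 3 comparisons share no samples.

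**Figure D5:**
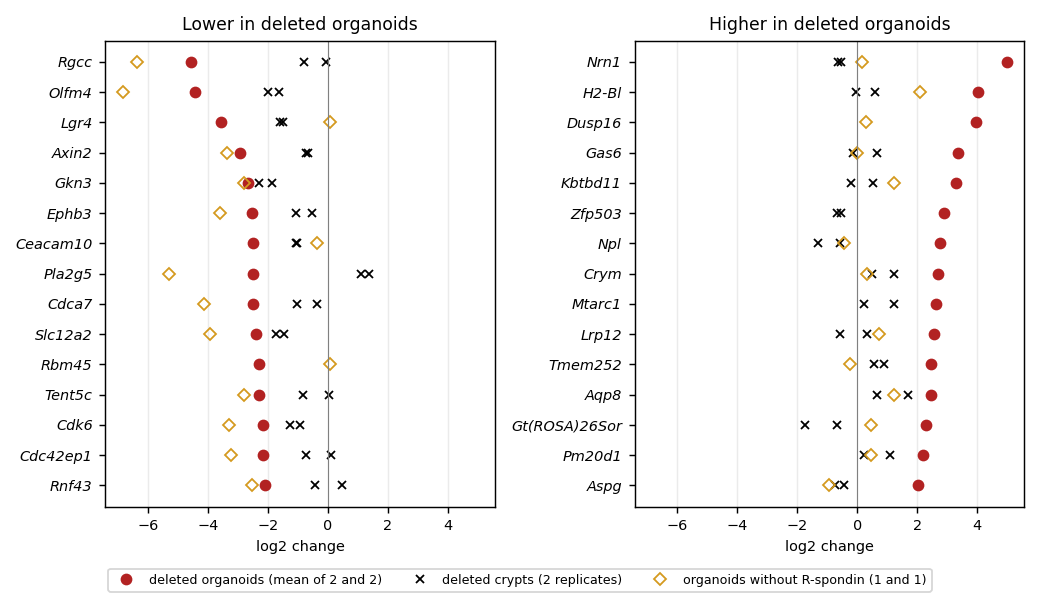
Log2 changes of the 30 named genes in deleted organoids (red circles, deleted minus wild type), in deleted crypts (black crosses, 1 for each of 2 replicates, deleted over wild type) and in organoids without R-spondin (yellow diamonds, 1 culture without against 1 with). Most genes lower in deleted organoids are also lower without R-spondin (12 of 15 by 1 or more), while Nrn1, at 4.98 in deleted organoids, is at 0.16 without R-spondin and below 0 in both crypt replicates.

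The promoter windows of these genes were searched for the TCF motif, the letters CTTTGAT on either strand, in the 250 bases before the start that RefSeq gives in build GRCm38.p6. A window was found for 14 of the genes lower and 8 of the genes higher in deleted organoids, and 0 of either held the motif, where 3.72% of 27025 genes did. This says only that these letters are not in these windows.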

How the data were processed

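RNA of 2 deleted and 2 wild type organoid cultures was hybridised in Cy5, with a reference RNA in Cy3, to Agilent arrays. The deposited scanner files give, per the file headers, an unnormalised intensity for each spot and for its surroundings. The headers name Agilent Feature Extraction 10.5.1.1, and version 8.5.1.1 stands in the submitters' processing notes. A column of these files and the deposited series table hold the log10 ratio of processed red over green signals, whose direction and scale were checked against the scanner values. Whether the series table was centred further was not tested.

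Spots marked as outliers by the scanner software were set aside for the changes and tests, but not for the raw intensities printed above. Median Cy5 intensities were corrected with normexp (offset 50) and quantile-normalised between the 4 arrays in limma 3.58.1 under R 4.3.3, with version 1.17.8 of data.table. Ratios were normalised by loess within each array (span 0.3). A probe was tested where every culture of at least 1 group was well above background by the scanner software's call and at least 3 arrays had a value. The brightest tested probe stood for a gene. Of 43379 gene probe spots, 28661 were named by RefSeq accession, 5396 by symbol, 952 by an older symbol, and 8370 kept the file's name.

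The groups were compared by lmFit and eBayes of limma in two-sided tests, with Benjamini-Hochberg adjustment over all genes and a threshold of 0.05. The change in organoids minus the change in crypts was tested in 1 limma model over both sets of arrays. A gene not above background in any culture of a group is given as at least N-fold. The bound sets the mean of the bright group against, on each array of the dim group, the higher of the gene's own value and the lowest signal among probes well above background. Slides hold 1 culture of each group, so the slide was also fitted as a block, as a replicate block on the culture numbers. With 4 arrays this added term leaves very little to measure a gene's own spread, so the block p-values lean on the spread that eBayes pools over genes. For a gene that lacks a value on an array they rest on that pooled spread wholly. The pairing comes from the slide position in the files, and the labels do not number the cultures. Same-slide cultures deviated together at a correlation of 0.534. The script was tested on simulated data. With 4 arrays, precision is limited by their number.

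Genes were named by a rule: Lgr4, Lgr5 and Lgr6, every gene past the threshold, then genes up to 15 in each direction with the largest Cy5 change among those with an approved symbol, an unadjusted p under 0.05 and groups that did not overlap, by Cy5 and by ratio alike. Up to 4 members of each list with the largest change and groups that do not overlap were added, with any past the threshold and the brightest member of each list of other cell types. The 27 lists hold 616 genes, of which 604 are on the array and 510 were tested. The members, the lists and the rules were chosen with earlier results of these data known. Alternatives covered scaling, background correction, filters, probes, the slide and leaving out each culture. Some gene families that were looked at are not reported here.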

Additional observations from a re-analysis of the deposited data

Results flagged for a closer look

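For 13 of 11645 genes (0.112%) the change in deleted organoids differed from the change in deleted crypts in limma at an adjusted p under 0.05, by a test of the difference itself. The genes are named because they passed this test. Each difference below is the organoid change by Cy5 minus the crypt change, on the log2 scale.

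Of the genes that passed in organoids, Nrn1 differed by 5.56 (4.98 in organoids, -0.58 in crypts), H2-Bl by 3.76 (4.04 and 0.28), Gas6 by 3.08 (3.35 and 0.27) and Rgcc by -4.12 (-4.56 and -0.44). Npl differed by 3.70 (2.76 and -0.94). Zfp503 was not above background in wild type organoids, so its fitted difference of 3.48 (2.88 and -0.60) is no exact size, and in organoids it was at least 5.17-fold higher. In each of these 6 genes the crypt value was below 1 in size.

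A second set was large in crypts instead. Cbr3, a carbonyl reductase, differed by -4.47 (0.50 in organoids, 4.97 in crypts), Gsta3, a glutathione transferase, by -4.14 (-0.45 and 3.69), Ces1g by -3.98 (-0.89 and 3.09), Akr1b8, an aldo-keto reductase, by -3.86 (0.59 and 4.45) and Aldh4a1, of proline breakdown, by -2.68 (-0.21 and 2.48). All 5 are enzymes of small molecule metabolism. The crypt and organoid deletions used different Cre lines, AhCre and VillinCre, so Cre line and tissue preparation cannot be told apart here.

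Gsdmc3, a gasdermin, differed by 4.53 (2.07 in organoids on 3 arrays, -2.46 in crypts) and Ywhaz, a 14-3-3 protein, by 3.22 (1.41 and -1.80), so that these 2 had opposite signs. With the organoid change taken by ratio, 3 of 11620 genes passed, Akr1b8, Cbr3 and Gsta3, at differences of -3.94, -4.97 and -4.03.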

How the results depend on the processing

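The calls depended on the processing. Against 1 gene lower and 4 higher by Cy5, limma called 17 and 10 with 75th percentile scaling, 10 and 13 with background subtraction and a floor, 7 and 5 with a smaller offset, 18 and 18 with trend and robust moderation, 5 and 12 with the deposited log ratios, 0 and 1 with marked spots kept, 0 and 0 without a filter on dim probes, and 0 and 0 by ratio. All 5 genes called stayed called with each of the first 4 of these settings, with median scaling, with the filter on all 4 arrays and with the slide as a replicate block, which called 198 lower and 146 higher. Of the 5, 3 remained with the deposited log ratios and without deleted culture 1, 1 with marked spots kept, and 0 without deleted culture 2. With the 2 tested probes of Dusp16 averaged it gave 2.01 (limma adjusted p 0.0907). Without 1 culture the Cy5 counts ranged from 0 to 35 lower and from 0 to 61 higher. The ratio counts ranged from 0 to 109 lower and from 0 to 9 higher, with the highest in each case without wild type culture 1. With the slide as a block the ratio counts were 0 and 0. The crypt difference was called for 13 genes by Cy5 and 3 by ratio. The deposited log ratios moved the median of all genes to 0.16 and median scaling to 0.11, against 0.02. Fits without 1 culture assume that the lone culture varies like the other group. The cause of these differences was not tested.

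Every gene whose direction reversed had failed in limma without the slide block, while Scn2b, Neurog3, Epha4, Phlda1, Tent5c, Cps1 and Ces1g had passed with it. By ratio the values were 0.043 for Lgr6, 0.10 for Epha4, 0.18 for Scn2b and Neurog3, 0.083 for Cps1, -1.26 for Mttp, -0.033 for Vil1, 0.12 for Aurkb, -0.0001 for Oas1a, 0.63 for Dll1, 0.17 for Notch2, 0.36 for Hes1, 0.20 for Ly6a, -0.40 for Mvk, 0.012 for Ces1g, -0.59 for Nqo1, 0.066 for Col6a1 and 0.0040 for Vwf. By the deposited log ratios they were 0.70 for Lgr6, 0.18 for Tent5c, 0.015 for Ephb2, 0.28 for Ptgs1, 0.054 for Lfng, 0.040 for Hes1, 0.48 for Bmp7, 0.12 for Phlda1, 0.39 for Ccn2, 0.37 for Col6a1, 0.15 for Vwf and 0.34 for Hbb-bt. Median scaling gave 0.057 for Tagln and 0.0042 for Hbb-bt, and averaged probes 0.11 for Tagln. Without 1 culture, values ranged from -0.051 to 0.58 for Lss, from -0.15 to 0.51 for Acta2, from -0.99 to 0.45 for Lyz2 and from -0.21 to 0.18 for Hbb-bt. For Lss, 3 of these fits took another of its probes as the brightest, and the probe reported above gave 1.26 to 2.72 in them. Genes not above background in 1 group have only a bound.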

Other observations

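With the slide as a block, limma called 147 genes lower and 132 higher in deleted organoids that are on none of the gene lists. After their values had been seen, families with members among them were read whole, so their counts are descriptions.

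Genes of de novo purine synthesis lay on the negative side by Cy5. All 8 genes read, from Ppat to Gmps, were lower without overlap after normalisation, where 18.7% of all genes were, with a median of -0.78. Ppat, Paics and Gart were lower with the slide as a block, where 1.43% of all genes were, and the other 5 did not pass. By ratio the values lay between -0.76 for Paics and 0.0005 for Gmps. Ppat, the first enzyme of the pathway, read 433.5 and 537 in deleted organoids, against 1400.5 and 879 in wild type organoids (change -1.43, -0.30 by ratio). Of 4 Fgf receptors, 3 were lower without overlap, where 18.7% of all genes were, with Fgfr4 at -1.19 (-3.62 by ratio) and Fgfr2 at -0.90 (0.31 by ratio).

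Aquaporins split. Aqp1 read 2614 and 4837 in deleted organoids, against 9830 and 10742 in wild type organoids (change -1.77, -1.02 by ratio). Aqp3 read 1347.5 and 1956 in deleted organoids, against 512.5 and 527 in wild type organoids (change 1.55, 1.44 by ratio), and Aqp8 was higher as well, as given above. Aqp1, Aqp3 and Aqp8 were the 3 of 7 tested aquaporins that passed with the slide as a block, where 1.43% of all genes were lower and 1.06% higher. The gasdermin C genes Gsdmc and Gsdmc3 gave 2.00 and 2.07 by Cy5, and Gsdmc2, not above background in wild type organoids, was at least 3.04-fold higher. As close copies they may share probe signal, and Gsdmd gave 0.52. The exchangers Slc9a2 and Slc9a3 gave 0.98 and 1.56 by Cy5 but -0.07 and -2.19 by ratio. Among 8 genes of lipid and sterol handling Angptl4 gave 1.87 (0.51 by ratio) and Abcg5 0.94 (0.27 by ratio). By Cy5 4 of the 8 were higher without overlap, where 18.2% of all genes were, and Mttp, which is among these 4, gave -1.26 by ratio.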
